A study of Mus musculus and Homo sapiens with 12 samples.

Results

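The transcripts of the mitochondrial genome were measured in wild-type and PFKFB4-knockout cells of a mouse and a human breast cancer line. In the mouse line, EMT6, the genes were all those whose symbol starts with mt-, which gave 37 of the 54331 genes in the table: 13 that code for proteins, 2 ribosomal RNAs and 22 transfer RNAs. In the human line, MDA-MB-231, they were the 13 coding and 2 ribosomal RNA genes, taken by identifier from 60233 genes, and human mitochondrial tRNAs were not analysed here. Membership used no measured value. EMT6 is an established line from a mouse mammary carcinoma, and MDA-MB-231 an established human breast adenocarcinoma line. Wild-type and knockout cells were each given 3 libraries in both lines, 12 in all. PFKFB4, the gene named as knocked out, encodes an enzyme that makes and degrades a fructose bisphosphate that regulates glycolysis. All groups were kept in DMEM with high glucose, serum and antibiotics and had no further treatment in the labels. RNA was purified on miRNeasy columns and made into poly(A) RNA libraries with the Roche mRNA HyperPrep kit. Libraries of a group are named as biological replicates in the labels, which leave out whether they were separate cultures and whether a knockout is 1 clone; the p-values therefore measure only the spread among these samples, which may be technical. In the tables, columns coded A7 (EMT6) and G2 (MDA-MB-231) were taken as the knockout by elimination, the rest being named wild type, since the codes are not explained.

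The mitochondrial genome is a small circle, present in many copies per cell, that is transcribed from both strands into long precursor RNAs. In most places tRNA genes lie between the coding and ribosomal RNA genes, and cutting out the tRNAs releases the others. The mRNAs receive short poly(A) tails and encode core subunits of respiratory complexes I, III and IV and of ATP synthase, complex V; all other proteins of the organelle come from nuclear genes. Fragments of mitochondrial DNA also lie in nuclear chromosomes, and a short read from either source can fit both.

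Some sequences bear on how these genes were measured. They come from GENCODE M21 on GRCm38 and run 5′ to 3′ on the strand of the gene. The first set shows neighbours that share or adjoin sequence. At the end of mt-Atp8 (chrM:7907-7969), the capitals mark 43 nt that also begin mt-Atp6, the gene that lies with it on 1 mRNA; at the end of mt-Nd4l (chrM:10137-10173), they mark 7 nt shared with mt-Nd4. In the stretch from mt-Rnr2 through mt-Tl1 to mt-Nd1 (chrM:2661-2765), they mark mt-Tl1, a leucine tRNA of 75 nt with no base between it and either neighbour.
mt-Atp8 end: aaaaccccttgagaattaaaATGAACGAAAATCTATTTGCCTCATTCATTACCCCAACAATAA
mt-Nd4l end: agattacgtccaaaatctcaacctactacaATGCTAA
mt-Rnr2 to mt-Nd1: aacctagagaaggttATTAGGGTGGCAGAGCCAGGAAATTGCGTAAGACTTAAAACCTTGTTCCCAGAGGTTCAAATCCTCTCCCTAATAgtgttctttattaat
The second set shows how close the nuclear copies on mouse chromosome 1 are to the genes. 7 annotated pseudogenes there, on the minus strand within chr1:24611535-24616197 (4663 nt), match 7 mitochondrial coding genes over at least 200 nt with at least 99% identity, 5 of them without a mismatch and 2 with 1. The capital marks that base, given below as the mitochondrial base, its position from the first base of the mitochondrial gene, and the base of the copy. The copy of mt-Nd3, Gm28438, differs by T3C (chrM:9459-9486 against chr1:24613092-24613119). The copy of the end of mt-Co1, Gm29216, differs by A1066T (chrM:6390-6418 against chr1:24616160-24616188). For mt-Co3, the first 60 bases (chrM:8607-8666) are also those of its copy, Gm28437.
mt-Nd3: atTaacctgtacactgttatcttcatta
Gm28438: atCaacctgtacactgttatcttcatta
mt-Co1: ggaAttgttttatccaactcatcccttga
Gm29216: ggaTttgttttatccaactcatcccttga
mt-Co3 and Gm28437: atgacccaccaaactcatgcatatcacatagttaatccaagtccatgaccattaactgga

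The values are TPM, which divide the reads of a gene by its effective length and scale each library to a total of 1000000. The files hold no counts, so the depth of a library is not known. In EMT6, Pfkfb4 stood at 10.2, 10.5 and 10.4 TPM in wild type and at 6.96, 6.87 and 8.24 TPM in the knockout, a log2 fold change of -0.45 ± 0.08 (SE; limma, Benjamini-Hochberg adjusted p = 0.00487) that was -0.22 (adjusted p = 0.0695) when each library was scaled by its median ratio to the others. How the gene was altered is not given in the sources used here. For MDA-MB-231, the human PFKFB4 transcript was not analysed here. Of 7 carcinoma markers in EMT6, Krt8 and Vim were called higher and Krt18, Krt14 and Krt19 lower in the knockout, while Epcam and Cdh1 were under 1 TPM in both groups. Of 8 leukocyte markers 5 had a mean under 1 TPM, among them Ptprc, Cd3e and Itgam. The sum over the 8 was 49.997 to 54.2 TPM in wild type and 82.9 to 87.7 TPM in the knockout. Of the 3 tested, Cd68 (1.20) and Coro1a (0.95) were called higher on the log2 scale and Cd14 (-0.09) was not called; by median-ratio scaling all 3 were called higher. All 5 endothelial markers were under 1 TPM, with sums of 0.191 to 0.318 TPM in wild type and 0.0672 to 0.198 TPM in the knockout. A list of RNAs with little or no poly(A) and of loci with ribosomal RNA sequence moved with the knockout in EMT6. Of its 14 tested members 10 were called higher and 2 lower (median log2 fold change 1.24), beside 14.5% of all tested genes called higher and 42.3% lower, and its summed TPM was 31399 to 36211 in wild type and 62837 to 81831 in the knockout. Mir6236 held most of it, at 30404 ± 2122 and 64600.2 ± 8630 TPM (SD, n = 3 and 3), and Rn7sk, a small nuclear RNA, went from 19.0 ± 1.83 to 94.8 ± 9.52 TPM. A short gene weighs more in TPM than in reads, so the summed TPM of the list is not a share of reads. Reads of its members were not worked out here. Also called higher were Gm42418, Gm26917, Lars2, Rn7s1, Rmrp and Rnu1a1, by log2 fold changes of 0.78 to 2.76; Malat1 (-0.43) and Neat1 (-1.40) were lower and Rny1 (1.20) was not called. The part of these RNAs in the mitochondrial values was not tested.

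In EMT6 most mitochondrial mRNAs were lower in the knockout. Of the 13 coding genes 10 were called lower, 1 higher and 2 not, at an adjusted p under 0.05 from limma on log2(TPM + 1). Over all 13499 tested genes 42.3% were called lower, 14.5% higher and 56.7% in either direction. The coding genes had a median log2 fold change of -0.79, against -0.21 over all tested genes, and ranged from -1.65 to 0.66. The groups did not overlap for 11 of the 13, while they did not overlap for 66.2% of all tested genes. In bulk RNA, fewer cells with a transcript and less of it per cell cannot be told apart. Median-ratio scaling moved the median of all genes to -0.01 and that of the 13 to -0.54, with 1 called higher and 9 lower; by that scaling 27.1% of all genes were called higher and 24.7% lower.

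Neither ribosomal RNA of the organelle was called in EMT6 by limma (0 of 2 at an unadjusted p under 0.05). The small one, mt-Rnr1, stood at 428, 429 and 415 TPM in wild type and 389.8, 413 and 403 TPM in the knockout. The groups were narrow and did not overlap, with the knockout lower by a log2 fold change of -0.08 ± 0.04 (limma adjusted p = 0.121), but the scalings gave opposite calls: it was 0.17 and called higher under median-ratio scaling (adjusted p = 0.011), and -0.16 and called lower with a total without mitochondrial genes (adjusted p = 0.0187). The large one, mt-Rnr2, was at 1202, 1091 and 1002 TPM and at 986, 1101 and 880.0 TPM, with groups that overlapped (-0.15 ± 0.10, limma adjusted p = 0.245; 0.09 under median-ratio scaling).

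**Figure D1:**
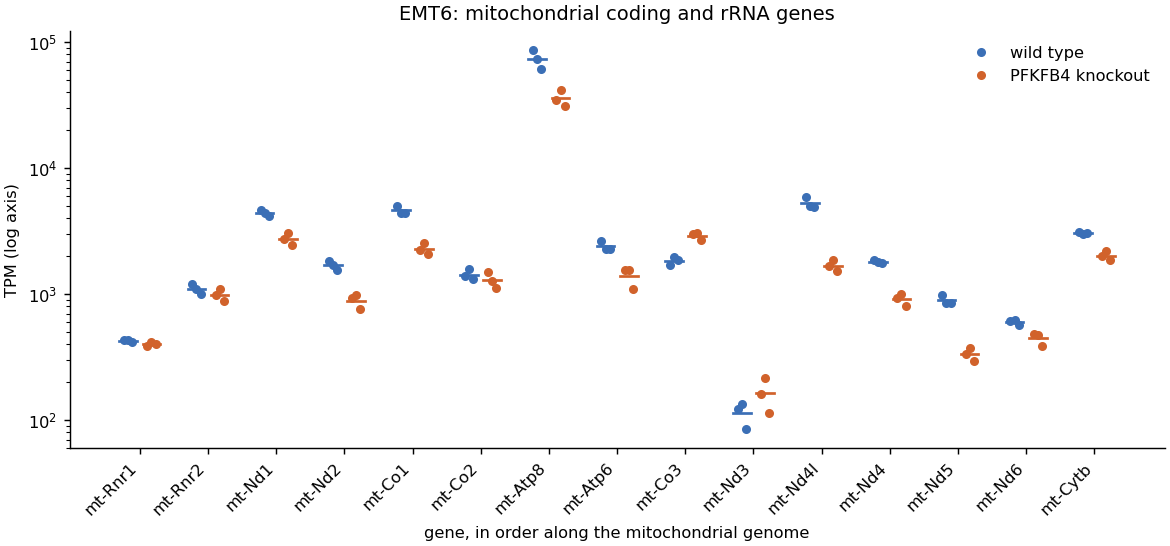
TPM of the 13 coding and 2 ribosomal RNA genes of the mitochondrion in the 6 EMT6 libraries, on a log axis in gene order. Points are libraries and bars are means of 3; knockout points lie below wild type for 10 coding genes and above it for mt-Co3.

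Complex I, the NADH dehydrogenase, has 7 subunits from this genome, and 6 of the 7 fell. The largest change of the 13 coding genes was in mt-Nd4l, which encodes a small membrane subunit, at 5927, 5027 and 4882 TPM in wild type and 1659, 1869.6 and 1511 TPM in the knockout. Every knockout library lay far below every wild-type library (log2 fold change -1.65 ± 0.11, limma adjusted p = 0.000223). Its partner on the same mRNA, mt-Nd4, went from 1846, 1795 and 1757 TPM to 930.2, 1006 and 797 TPM (-0.99 ± 0.09, limma adjusted p = 0.000527). For mt-Nd5, the gene with the longest coding sequence, the wild-type libraries held 976, 844 and 850.2 TPM and the knockout 333, 371 and 293 TPM (-1.42 ± 0.10, limma adjusted p = 0.000297). The groups stood apart for all of these. Levels of mt-Nd1 were 4636, 4392 and 4180.1 TPM against 2744, 3074 and 2452 TPM (-0.68 ± 0.09, limma adjusted p = 0.0018). Those of mt-Nd2 were 1843, 1689 and 1561 TPM against 929, 978 and 756 TPM (-0.94 ± 0.11, limma adjusted p = 0.00133). mt-Nd6 is the only coding gene on the other strand, and it fell less, from 615, 625 and 568 TPM to 481, 471 and 384 TPM (-0.44 ± 0.10, limma adjusted p = 0.00977), but lost its call by median-ratio scaling (-0.20, adjusted p = 0.14). mt-Nd3 was at 122, 133 and 84.8 TPM in wild type and 162, 214 and 113 TPM in the knockout, with groups that overlapped (0.50 ± 0.27, limma adjusted p = 0.165; called higher without knockout replicate 3, at 0.74, adjusted p = 0.0492).

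Cytochrome b, mt-Cytb, is the only subunit of complex III from this genome. It stood at 3120.1, 2999 and 3068 TPM in wild type and 1995, 2177 and 1877 TPM in the knockout, with groups that did not overlap (-0.61 ± 0.06, limma adjusted p = 0.000746). The subunits of ATP synthase fell as well. mt-Atp8, a short gene, held 86070.2, 73644 and 60748 TPM in wild type and 34751, 41384 and 31265 TPM in the knockout (-1.03 ± 0.16, limma adjusted p = 0.0029). mt-Atp6 held 2642, 2256 and 2256 TPM against 1548, 1548 and 1086 TPM (-0.79 ± 0.16, limma adjusted p = 0.00703). For both genes all wild-type libraries were above all knockout libraries.

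The 3 core subunits of complex IV, cytochrome c oxidase, did not move together. mt-Co1, the catalytic subunit, fell from 5021, 4428 and 4405 TPM to 2236, 2530.4 and 2067 TPM (-1.02 ± 0.09, limma adjusted p = 0.000538). mt-Co2, which accepts electrons from cytochrome c, was at 1381, 1571 and 1310.1 TPM and at 1496, 1276 and 1113 TPM, overlapping and not called (-0.14 ± 0.12, limma adjusted p = 0.368; 0.11 under median-ratio scaling). mt-Co3 was the coding gene called higher, from 1688, 1953 and 1878 TPM to 2971, 3076 and 2665 TPM (0.66 ± 0.08, limma adjusted p = 0.00131). All 3 of these genes, with mt-Atp6, mt-Nd3, mt-Nd4l and part of mt-Nd4, have one of the near-identical copies on chromosome 1 described above. Only annotated transcripts were searched for copies. The chromosome 1 sequence between these pseudogenes was not compared, so copies of mt-Atp8 or of tRNA genes there were not looked for.

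For 5 of these 7 genes, much of the combined reads of gene and copy stood with the copy. Reads were set on the length scale of the mitochondrial gene, as described with the processing, and summed with those of the copy. The copy Gm28438 held 92.0 to 96.3% of the combined reads of mt-Nd3 in the 6 libraries. Gm28661 held 73.8 to 82.7% for mt-Co2, and Gm10925 held 71.9 to 79.8% for mt-Atp6. The shares of the 2 other copies differed between the groups. Gm28437 held 63.6 to 68.5% of the mt-Co3 reads in wild type and 47.2 to 50.8% in the knockout. Gm29216, which covers only the last part of mt-Co1, held 20.5 to 25.5% in wild type and 34.9 to 36.9% in the knockout. Gm10222 held 1.25 to 6.01% of mt-Nd4l reads, and Gm28439 at most 4.33% of those of mt-Nd4. The other 10 copies found, at 90% identity or more over at least 100 nt, had a mean of at most 5.51 TPM in either group. Where the sequences are identical, the source of a read cannot be told apart.

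Adding the copies to their genes, a setting chosen after seeing the data, left no coding gene called higher by limma (0 at an unadjusted p under 0.05). With them, 11 of the 13 were called lower and 2 were not called, beside 42.3% and 14.5% of all genes called lower and higher in that fit, and the median of the 13 was -0.68. mt-Co3 with Gm28437 was at 5358, 5373 and 5265 TPM in wild type and 5631, 5987 and 5415 TPM in the knockout. The groups still did not overlap, but the difference was 0.09 ± 0.05 and no longer called (limma adjusted p = 0.15). mt-Co2 with Gm28661 was at 7301, 7434 and 7575 TPM against 5710.1, 5809 and 5278 TPM, and was now called lower (-0.41 ± 0.05, limma adjusted p = 0.00126). mt-Nd3 with Gm28438 was at 2870.4, 2937 and 2269 TPM against 2886, 2677 and 2053 TPM, so that its groups overlapped and its sign turned (-0.09 ± 0.16, limma adjusted p = 0.655). mt-Co1 with Gm29216 remained lower at 6312, 5874 and 5914 TPM against 3503, 3886 and 3275 TPM (-0.77 ± 0.07, limma adjusted p = 0.000618). mt-Atp6 with Gm10925 was also lower, at 9624, 9055 and 8428 TPM against 5507, 6186 and 5366 TPM (-0.67 ± 0.08, limma adjusted p = 0.00111). mt-Nd4l (-1.63) and mt-Nd4 (-1.01) stayed near their values without the copies. Of the complex IV genes, mt-Co1 and mt-Co2 were thus called lower with the copies added, and mt-Co3 was not called.

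**Figure D2:**
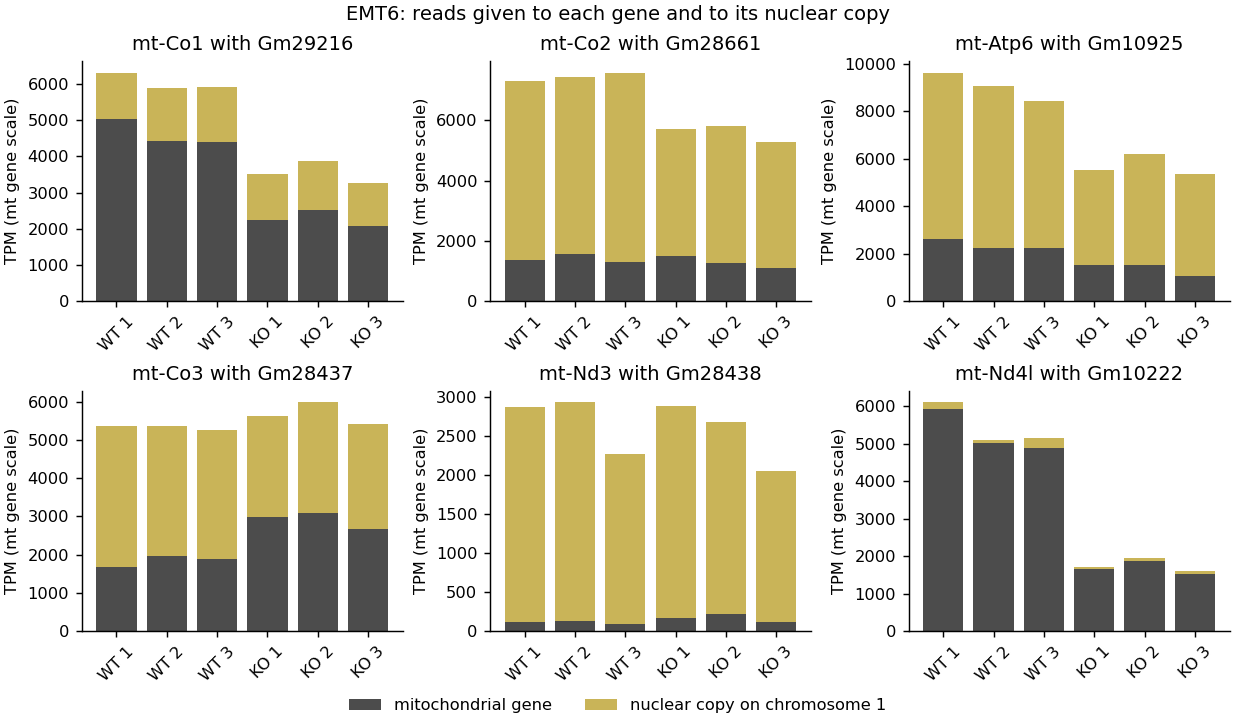
TPM on the scale of the mitochondrial gene (linear axes) in the 6 EMT6 libraries, for 6 genes with a nuclear copy on chromosome 1; dark bars are the gene as deposited and light bars the copy. For mt-Co3 the dark bars are taller in the knockout while the full bars differ by a log2 fold change of 0.09, and for mt-Nd3 the light bars hold 92.0 to 96.3% of the combined reads.

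Because of their short length, some genes weigh far more in TPM than in reads. In the EMT6 table the values of all 22 tRNA genes came out as whole reads, within 0.001 of a read in all 6 libraries, under an effective length from fragments of 250 ± 25 nt (mean and SD) cut at the length of the gene. By that length, mt-Atp8 counts as 10.4 nt in place of its 204 nt and mt-Nd4l as 49.7 in place of 297. mt-Atp8 therefore made up 69.4 to 74.3% of coding TPM in wild type but 3.22 to 4.12% of coding reads, and in the knockout 66.5 to 69.002% and 2.90 to 3.20%. The coding and ribosomal RNA genes gave whole reads within 0.02 for at most 1 of the 15 per library, so their reads are equivalents. Coding reads by this measure numbered 951985 to 1354975 in wild type and 541702 to 798209 in the knockout, and these numbers move with the unknown depth.

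Per nt of annotated length, with the copies added, the order of the coding genes differed between the groups. Values here are a gene's share of the summed reads per nt of the 13 coding genes, so that a rise of one lowers the others. In wild type the order began with mt-Atp6 at 16.8 ± 0.288% (SD, n = 3), mt-Co1 at 14.9 ± 0.388% and mt-Co2 at 13.9 ± 0.959%, of which mt-Co1 and mt-Co2 overlapped. mt-Atp8 (10.9 ± 1.34%) and mt-Co3 (10.7 ± 0.459%) overlapped too, and mt-Nd1 (9.55 ± 0.0299%), mt-Cytb (7.04 ± 0.316%), mt-Nd4 (4.39 ± 0.0482%) and mt-Nd2 (3.78 ± 0.122%) followed. At the foot stood mt-Nd4l (2.67 ± 0.165%), mt-Nd5 (2.25 ± 0.098%), mt-Nd3 (2.24 ± 0.240%) and mt-Nd6 (0.920 ± 0.0355%), with mt-Nd5 and mt-Nd3 overlapping. In the knockout mt-Co3 took the first place, at 16.8 to 17.9% per library against 10.2 to 11.1% in wild type. mt-Co2, mt-Nd3 and mt-Nd6 were also higher as shares, with groups that did not overlap. mt-Nd4l, at 1.31 ± 0.0355% in the knockout, and mt-Nd5, at 1.28 ± 0.047%, were lower without overlap, as were mt-Co1, mt-Atp8, mt-Nd1, mt-Nd4 and mt-Nd2. The shares of mt-Cytb (7.04 ± 0.0785% in the knockout) and mt-Atp6 (16.1 ± 0.457%) overlapped between the groups. mt-Atp8 and mt-Atp6 lie on 1 mRNA, and reads per nt, which are not scaled for depth, can be set beside each other within a library. For mt-Atp8 they were 274, 197 and 150.4 in wild type and 99.04, 125 and 78.7 in the knockout, and for mt-Atp6, in the same order of libraries, 382, 302 and 260.3, and 196, 233 and 168. mt-Nd4l, which shares an mRNA with mt-Nd4, gave 63.8, 44.8 and 41.9 reads per nt in wild type and 16.005, 19.4 and 13.3 in the knockout. mt-Nd4 gave 98.9, 77.4 and 70.1, and 42.7, 49.0 and 32.3. In each of the 6 libraries mt-Atp8 was below mt-Atp6 with its copy added, and mt-Nd4l below mt-Nd4. The copy was added to mt-Atp6 but none to mt-Atp8. Without it, mt-Atp6 (681 nt) had 71374, 51306 and 47451 reads in wild type and 37469.5, 39738 and 23225 in the knockout. mt-Atp8 (204 nt) had 55847, 40224 and 30690, and 20204, 25510 and 16053. Per nt, mt-Atp8 was then above mt-Atp6 in each library. The part of fragment length in these orders was not tested.

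The tRNA genes gave few reads, 882 to 1314 per wild-type EMT6 library and 423 to 560 per knockout library, summed over the 22. These genes are 59 to 75 nt long, shorter than the fragments of 250 ± 25 nt inferred above, and the libraries were made from poly(A) RNA. Whether a read came from a cut tRNA or from a longer RNA that holds its sequence was not tested. The values are therefore those of the genes and not levels of finished tRNAs. Of the 22, 20 passed the filter of 0.5 TPM in 3 libraries; mt-Tf and mt-Ts2 did not, with 0 reads in each wild-type library and 0 or 1 in each knockout library. Of the 20, limma called 9 lower, 0 higher (also 0 at an unadjusted p under 0.05) and 11 not, beside 42.3% and 14.5% of all genes called lower and higher. The groups did not overlap for 10 of the 20, against 66.2% of all tested genes, and the median log2 fold change was -1.10.

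A few tRNA genes held most of the reads. mt-Tl1, a leucine tRNA, alone gave 51.7 to 57.3% of tRNA reads, and together with mt-Tw (tryptophan), mt-Tt (threonine) and mt-Ts1 (serine) 83.0 to 87.5%. mt-Tl1 had 700, 550 and 488 reads in the wild-type libraries and 261, 295 and 225 in the knockout libraries. In TPM it was 2658 ± 149 and 1189 ± 54.6 (SD, n = 3), with no overlap (-1.16 ± 0.06, limma adjusted p = 0.000106). mt-Tw had 274, 186 and 172 reads against 82, 113 and 69, again without overlap in TPM (-1.27 ± 0.14, limma adjusted p = 0.00115). mt-Tt had 92, 56 and 60 reads against 46, 30 and 26, likewise without overlap (-1.04 ± 0.22, limma adjusted p = 0.00836). mt-Ts1, on the other strand, had 44, 48 and 39 reads against 36, 42 and 31, with groups that overlapped and no call (-0.28 ± 0.10, limma adjusted p = 0.0567).

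Among the tRNA genes with fewer reads, those for alanine (mt-Ta, -2.22), glutamate (mt-Te, -2.00), proline (mt-Tp, -1.65), methionine (mt-Tm, -1.22), valine (mt-Tv, -1.18) and lysine (mt-Tk, -0.86) were called lower. They rest on few reads: 11, 7 and 7 against 2, 2 and 1 for mt-Ta, and 12, 5 and 3 against 1, 2 and 1 for mt-Te. The call of mt-Tv was at the edge of the threshold (limma adjusted p = 0.0499). It was lost in limma without a trend (adjusted p = 0.0534), with a pseudocount of 0.1 (0.0523) and with no filter (0.11). The call of mt-Tv was also lost without wild-type replicate 1 (limma adjusted p = 0.13) or 3 (0.13) and without knockout replicate 1 (0.0712) or 2 (0.0932), and that of mt-Tk without knockout replicate 3 (0.0514). For mt-Tp it was lost without wild-type replicate 1 (limma adjusted p = 0.0576) or 2 (0.0575) and without knockout replicate 1 (0.0564) or 2 (0.0538). Under median-ratio scaling mt-Tv (adjusted p = 0.107) and mt-Tk (0.0559) were not called. The other tRNAs not called were mt-Tc (-3.31, limma adjusted p = 0.0628), mt-Tr (-2.18, 0.0518), mt-Th (-1.31, 0.275), mt-Td (-0.89, 0.534), mt-Ti (-0.79, 0.102), mt-Tn (-0.35, 0.329), mt-Tg (-0.29, 0.375), mt-Tl2 (-0.28, 0.844), mt-Tq (-0.01, 0.995) and mt-Ty (0.06, 0.915). Leaving out 1 library brought a call of lower for mt-Ts1 (without wild-type replicate 1), mt-Tg (wild-type 2), mt-Tc (knockout 1), mt-Ti (knockout 2), mt-Tn (knockout 3) and mt-Tr (knockout 2 or 3), with limma adjusted p of 0.0174, 0.0332, 0.00301, 0.0218, 0.00866, and 0.0349 or 0.0464. Several of these tRNAs stood at 0 to 10 reads per library, and their fitted values depend on the pseudocount.

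**Figure D3:**
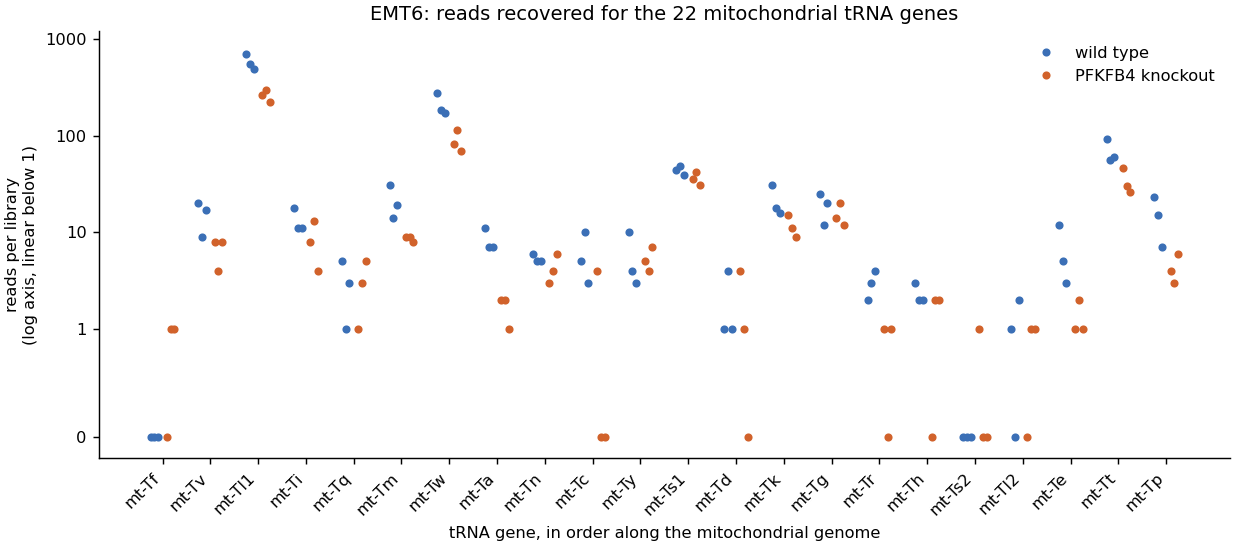
Reads per EMT6 library for the 22 mitochondrial tRNA genes in gene order, on an axis that is logarithmic above 1 and linear below; points are libraries and are not scaled for depth. mt-Tl1 stands highest, at 488 to 700 reads in wild type and 225 to 295 in the knockout.

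Ratios within a library do not depend on its depth. tRNA reads numbered 0.616 to 0.672 per 1000 reads of the coding genes and their copies in wild type and 0.449 to 0.479 in the knockout. Ribosomal RNA reads numbered 5.63 to 6.09 per 100 such reads in wild type and 8.17 to 8.39 in the knockout. mt-Tl1 gave 3.36 to 3.41 reads per 1000 reads of its neighbour mt-Nd1 in wild type and 2.28 to 2.62 in the knockout. All 3 ratios differed between the groups without overlap, lower in the knockout for the tRNAs and higher for the ribosomal RNAs. Both kinds of RNA carry little poly(A), and the summed TPM of the list of poly(A)-poor RNAs and ribosomal RNA loci also differed between the groups. That sum is mostly Mir6236 and is not a share of reads. The part of that difference in these ratios was not tested.

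The summed share of the mitochondrial genes in EMT6 fell by 5.15 percentage points of TPM, from 10.8 ± 1.47% to 5.66 ± 0.705% (SD, n = 3 and 3; two-sided exact permutation p = 0.1, the smallest that 3 against 3 libraries allow). The share was 12.3, 10.8 and 9.36% in the wild-type libraries and 5.59, 6.39 and 4.98% in the knockout libraries, which did not overlap. Without mt-Atp8 it was 3.45 ± 0.206% and 2.08 ± 0.200%, and with each TPM multiplied by exon length, 1.81 ± 0.162% and 1.13 ± 0.118%. Exon length was the full length, which for mt-Atp8 is 204 nt against an effective 10.4 nt. The share by exon length is therefore not a share of reads, and mt-Atp8 still weighs more in it than in reads. With the nuclear copies the share of TPM was 13.5 ± 1.48% and 7.73 ± 0.816%. None of these measures overlapped between the groups, and each gave an exact permutation p of 0.1. The share of mt-Atp8 alone fell by 3.77 points.

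Nuclear genes that make, cut and use mitochondrial RNA were read from the EMT6 table beside the mitochondrial genes. Of 17 genes for transcription and replication of mitochondrial DNA, limma called 0 higher (0 at an unadjusted p under 0.05) and 4 lower, with a median log2 fold change of -0.21, equal to that of all genes. Rnaseh1, which removes RNA from RNA-DNA hybrids, went from 13.9 ± 1.10 to 7.63 ± 0.501 TPM (-0.79). Tfam, which packages the genome and starts its transcription, went from 39.5 ± 2.02 to 30.9 ± 0.698 TPM (-0.34; -0.10 and not called under median-ratio scaling, adjusted p = 0.144). Of 37 genes for RNA processing, modification and decay, 5 were called higher and 10 lower (median -0.15), beside 14.5% of all tested genes called higher and 42.3% lower. Hsd17b10, a subunit of the RNase that cuts tRNAs from the precursor, was higher by 0.42, and Slirp, a stabiliser of mitochondrial mRNAs, by 0.29. Grsf1, a protein of mitochondrial RNA granules, fell by 0.68, and Fastkd5, which acts in the processing of mRNAs that lack a flanking tRNA, fell by 0.45. Of 8 regulators of mitochondrial biogenesis 7 were tested, with 0 higher (0 at an unadjusted p under 0.05) and 5 lower by limma (median -0.60), with Yy1 at -0.86 and Pprc1 at -0.63. By median-ratio scaling the counts were 2 higher and 2 lower, 9 higher and 3 lower, and 2 higher and 4 lower for the 3 lists, beside 27.1% of all genes higher and 24.7% lower by that scaling. The shares called lower in the first 2 lists, 4 of 17 and 10 of 37, were under that of all genes by the deposited scale.

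In complexes I, III and V, most nuclear subunits differed in direction from most of their mitochondrial partners, while the partners in complex IV were mixed. In complex I, 28 of 36 nuclear genes were called higher and 2 lower (median 0.36), beside 14.5% of all tested genes called higher and 42.3% lower, while 6 of the 7 mitochondrial ones fell. Ndufa1 went from 95.9 ± 2.05 to 163 ± 5.59 TPM (0.76) and Ndufa13 by 0.62, and Ndufv3 (-0.37) and Ndufb10 (-0.27) were lower. In complex III, 6 of 9 were higher and 1 lower (median 0.43), with Uqcrh at 0.64, Uqcrb at 0.43 and Uqcrc2 at -0.15, beside the lower mt-Cytb. In complex IV, limma called 10 of 11 higher and 0 lower (0 at an unadjusted p under 0.05; median 0.39), among them Cox4i1 (0.58) and Cox7b (0.48). Of the mitochondrial partners there, as deposited, mt-Co1 was called lower, mt-Co2 was not called and mt-Co3 was called higher. With the copies added, mt-Co1 and mt-Co2 were called lower and mt-Co3 was not called. In complex V, 14 of 18 identifiers were higher and 1 lower (median 0.31), beside lower mt-Atp6 and mt-Atp8. That list includes the inhibitor protein Atpif1, at 0.73. Atp5o was at 0.54 by 1 identifier and at -0.31, not called, by its other identifier, and Atp5f1 was at -0.20. Median-ratio scaling gave 31, 8, 10 and 15 called higher in the 4 lists and none lower, beside 27.1% and 24.7% of all genes. The difference in direction between the nuclear and mitochondrial subunits was not tested as such.

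In MDA-MB-231 none of the 13 coding genes was called in either direction by limma (3 higher and 1 lower at an unadjusted p under 0.05), beside 7.97% of 15299 tested genes called higher, 12.1% lower and 20% in either direction. Their median log2 fold change was 0.23, against -0.04 over all tested genes, and the range was -0.47 to 0.45. The groups did not overlap for 2 of the 13, against 40.1% of all tested genes. Replicate 2 was the highest library of its group for 12 of the 13 genes in both groups. With the replicate number as a block in limma, 2 of the 13 were called higher and 1 lower, beside 3.49% and 6.73% of all tested genes. Over all tested genes, however, same-numbered libraries did not deviate together (correlations of 0.002, 0.11 and -0.13), so the numbers were not taken as pairs. For ATP8 (ENSG00000228253), for example, the wild-type libraries held 42059, 59173 and 37144 TPM and the knockout libraries 49514, 78701 and 54080.3 TPM, which overlapped (0.40 ± 0.24, limma adjusted p = 0.285).

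The 2 coding genes without overlap lay in opposite directions. ND3 (ENSG00000198840), a complex I subunit, was at 6323, 6473 and 6761 TPM in wild type and 8154, 8150.4 and 7253 TPM in the knockout (0.27 ± 0.08, limma adjusted p = 0.0557). CO2 (ENSG00000198712) of complex IV was at 4849.7, 5568 and 5014 TPM and at 4663, 4763 and 3820.4 TPM (-0.22 ± 0.11, limma adjusted p = 0.197). Neither passed the threshold. Among the other complex I genes, ND2 was at 2602, 3383 and 2450.5 TPM and 3560.0, 4889 and 3173 TPM (0.45 ± 0.19, limma adjusted p = 0.15), and ND5 at 472, 577 and 393 TPM and 299.8, 423 and 317 TPM (-0.47 ± 0.18, limma adjusted p = 0.121). ND6 had a log2 fold change of 0.35 ± 0.18, ND1 of -0.02 ± 0.18, ND4 of 0.01 ± 0.21 and ND4L of -0.03 ± 0.26. For these 6 genes the groups overlapped. In the other complexes, the changes were 0.06 ± 0.16 for CYB, 0.33 ± 0.13 for CO1, 0.23 ± 0.11 for CO3 and 0.41 ± 0.17 for ATP6, which was at 6049, 7386 and 5579 TPM in wild type and 7920.3, 10339 and 7131 TPM in the knockout. Their groups overlapped as well, and limma adjusted p ran from 0.128 for CO1 to 0.822 for CYB.

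The small ribosomal RNA, RNR1 (ENSG00000211459), was called higher in the MDA-MB-231 knockout. It stood at 1564, 1429 and 1426 TPM in wild type and 1749, 1965 and 2007 TPM in the knockout, so every knockout library was above every wild-type library (0.37 ± 0.08, limma adjusted p = 0.0225). Without knockout replicate 1 it was still called, but the call was lost without wild-type replicate 1, 2 or 3 or knockout replicate 2 or 3 (limma adjusted p of 0.0608, 0.0655, 0.0774, 0.0741 and 0.0782, with log2 fold changes of 0.33 to 0.42) and with no filter on low values (0.0675). The RNR1 call was also lost with the replicate number as a block. RNR2, the large ribosomal RNA, was at 2998, 3417 and 2775 TPM and at 2564, 2997 and 2696 TPM, with overlap (-0.15 ± 0.10, limma adjusted p = 0.343). The summed share of the 15 genes was 9.23 ± 1.72% of TPM in wild type and 11.3 ± 2.30% in the knockout, a difference of 2.03 percentage points with groups that overlapped (two-sided exact permutation p = 0.3). ATP8 alone held 4.61 ± 1.16% and 6.08 ± 1.57%, and the share without it was 4.62 ± 0.562% and 5.19 ± 0.757% (exact permutation p = 0.4). Lengths and nuclear copies of the human genes were not analysed here.

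**Figure D4:**
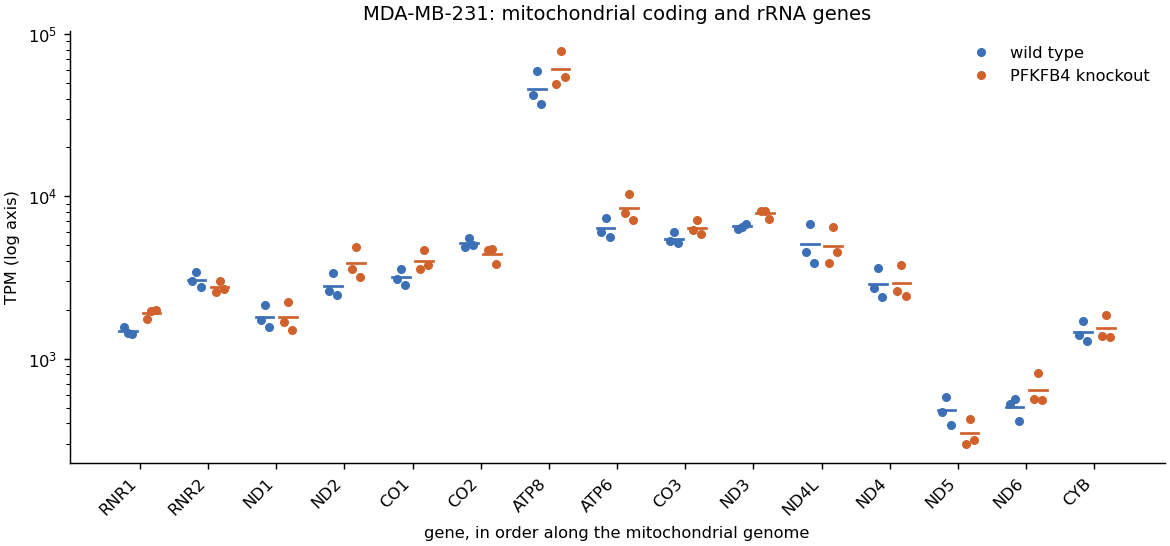
TPM of the 13 coding and 2 ribosomal RNA genes of the mitochondrion in the 6 MDA-MB-231 libraries, on a log axis, with means of 3 as bars. Points of the groups overlap except for RNR1 and ND3, higher in the knockout, and CO2, lower.

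Set side by side, the lines gave different values for most of the 13 coding genes. The 10 called lower in EMT6 included ND4L (-1.65 in EMT6 and -0.03 in MDA-MB-231), ND4 (-0.99 and 0.01), ND5 (-1.42 and -0.47), ATP8 (-1.03 and 0.40) and CO1 (-1.02 and 0.33). ND5 was the gene with the lowest value in MDA-MB-231 and had the second lowest among the coding genes in EMT6. The tables were normalized separately, so the difference between the lines was not tested. In TPM, ATP8 was the highest of the 13 coding genes in every library of both lines. ND3 was the lowest in EMT6 (113 ± 25.3 TPM in wild type, as deposited and without its copy), but the second highest by mean in MDA-MB-231 wild type (6519 ± 223 TPM). ATP6 was close to it there, at 6338 ± 938 TPM. In wild-type replicate 2, ATP6 (7386 TPM) and ND4L (6738 TPM) stood above ND3 (6473 TPM). Human lengths were not analysed, so the part of gene length in these ranks was not tested.

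**Figure D5:**
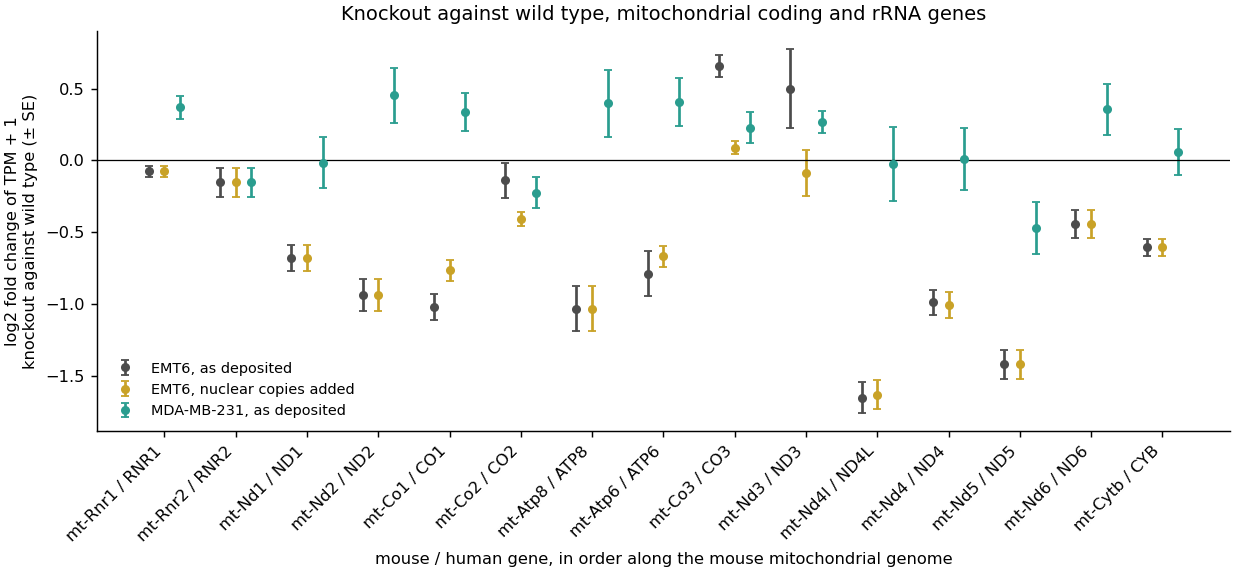
Log2 fold change of TPM + 1, knockout against wild type, with SE bars, for the 15 coding and ribosomal RNA genes in EMT6 as deposited, in EMT6 with nuclear copies added, and in MDA-MB-231. With the copies added, mt-Co3 goes from 0.66 to 0.09 and mt-Co2 from -0.14 to -0.41; the MDA-MB-231 values lie between -0.47 and 0.45.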

How the data were processed

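The submitters' processing notes name TopHat2 2.1.1, Subread 1.6.4, featureCounts and CASAVA 1.8.2, and the genome builds mm10 and GRCh38.p7. How these were set, strand included, and the step that gave TPM were not given in the sources used here. Each line has 1 deposited table, in which the authors give TPM that sum to 1000000 per library. As the files hold TPM and no counts, no count test was run.

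Each line was fitted alone on log2(TPM + 1) by limma 3.58.1 (R 4.3.3), using its mean-variance trend, for genes of at least 0.5 TPM in at least 3 of 6 libraries. p-values were adjusted by Benjamini-Hochberg over all tested genes, with calls at 0.05; fold changes on this scale understate those of low genes. Shares were compared by two-sided exact permutation over libraries with scipy 1.17.1 in Python 3.11.15. Values after ± are SD for TPM and shares, and SE for log2 fold changes.

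Mouse names and lengths came from GENCODE M21, which named 54097 of 54331 identifiers; no human annotation was used, and human genes were taken by identifier. Nuclear copies were found with blastn 2.17.0 among annotated transcripts only, and summed at 99% identity over 200 nt. Reads were TPM times effective length, divided by the value of 1 read in that library; copy reads were put on the scale of the gene by its effective length. The sum is for identical sequence and cannot show which source gave a read.

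Named were all coding and ribosomal RNA genes, every tested tRNA, and, of each nuclear list, at most 2 called members that rose and 2 that fell, by smallest adjusted p. Nuclear copies and poly(A)-poor RNAs were named from a mean of 10 TPM in either group. The members and lists were chosen with earlier results of these data known. Alternatives were limma without a trend, median-ratio scaling, a total without mitochondrial genes, a pseudocount of 0.1, no filter or 1 TPM, a replicate block, each library left out, and nuclear copies added. Statistics were tested on simulated data. There, limma called 40% of the genes changed 1.5-fold and 66% of those changed 2-fold in EMT6. In MDA-MB-231 it called 18% and 50%. At 4-fold and 8-fold it called 86% and 90% in EMT6, and 88% and 82% in MDA-MB-231. Far fewer genes were called in the simulated data, 145 in EMT6 and 129 in MDA-MB-231, than in the measured data. The human share by exon length was not run for want of lengths. One gene of the marker lists is not reported here and was left out of its list's counts and sums.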

Additional observations from a re-analysis of the deposited data

Results flagged for a closer look

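The small ribosomal RNA of the mitochondrion stood apart in opposite directions in the lines. In EMT6 every knockout library was below every wild-type library for mt-Rnr1 (log2 fold change -0.077), and in MDA-MB-231 every knockout library was above every wild-type library for RNR1 (0.37). The difference between the lines was not tested, as the tables were normalized separately. In EMT6 the change was not called by limma (adjusted p = 0.121), and the scalings gave opposite calls: 0.17, called higher, under median-ratio scaling (adjusted p = 0.011), and -0.16, called lower, with a total without mitochondrial genes (adjusted p = 0.0187).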

How the results depend on the processing

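In EMT6 the mitochondrial genes called, 20 in the reported analysis, numbered 18 to 23 under the other settings, and the genes called over the whole table stayed within 1.5 times of 7659. Of the 13 coding genes, mt-Nd1, mt-Nd2, mt-Co1, mt-Atp8, mt-Nd4l, mt-Nd4, mt-Nd5, mt-Cytb and mt-Atp6 were called lower under every setting run, without each library included. In MDA-MB-231 the 1 mitochondrial call, RNR1, became 2 with a total without mitochondrial genes, with a pseudocount of 0.1 and with a filter of 1 TPM, by the addition of ND3, and 0 with no filter. Leaving out 1 library gave 0 to 1 mitochondrial calls and 1223 to 2529 genes called over the whole table, against 3065; the count was lowest without wild-type replicate 1 (1223) and also fell by over 1.5 times without wild-type replicate 3 (1626) and knockout replicates 2 (1553) and 3 (1809). The cause of these differences was not tested.

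Over all tested genes, same-numbered libraries did not deviate together (correlations of 0.06, -0.02 and 0.07 in EMT6 and of 0.002, 0.11 and -0.13 in MDA-MB-231), so the numbers were not taken as pairs. For the mitochondrial coding genes of MDA-MB-231, however, replicate 2 was the highest library in both groups for 12 of the 13. With the replicate number as a block, 1564 genes and 3 mitochondrial genes were called in MDA-MB-231: ND2 and ATP6 higher (3.49% of all genes were) and ND5 lower (6.73%), with RNR1 no longer called (limma adjusted p = 0.075). In EMT6 the block gave 6651 genes and 21 mitochondrial genes, with mt-Nd3 added as higher (0.50, limma adjusted p = 0.0122) and mt-Ts1 as lower, and mt-Tp lost. The block left the differences in share at -5.15 and 2.03 points, with an exact permutation p of 0.25 for each, the smallest that 3 pairs allow. Between same-numbered libraries, the knockout share was always lower in EMT6 and always higher in MDA-MB-231. In EMT6 any pairing would give this, as the groups did not overlap. In MDA-MB-231 the groups overlapped, and the pattern rests on numbers that were not taken as pairs.

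Some values that were not called turned sign. Median-ratio scaling gave 0.17 for mt-Rnr1, 0.095 for mt-Rnr2, 0.11 for mt-Co2, 0.22 for mt-Tq, 0.049 for ND1 and 0.040 for ND4L. A total without mitochondrial genes gave -0.021 for mt-Ty, 0.017 for ND1 and 0.0072 for ND4L, and nuclear copies gave -0.090 for mt-Nd3. With 1 library left out, values on both sides of 0 were found for mt-Tq (-0.57 to 0.59), mt-Ty (-0.22 to 0.45), mt-Td (-1.92 to 0.22), mt-Tl2 (-1.26 to 0.56), CYB (-0.090 to 0.18), ND4 (-0.18 to 0.18), ND1 (-0.18 to 0.11) and ND4L (-0.23 to 0.20). The share differed by -5.87 to -4.40 points in EMT6 and by 0.705 to 3.00 points in MDA-MB-231 without 1 library, with the same sign each time.

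For tRNA genes at 10 reads or fewer per library, the number of reads limits the precision of the values, and some of their calls changed when 1 library was left out. The files do not give the depth of other genes. Effective length was inferred from the EMT6 tRNA values and was not checked in MDA-MB-231.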
